A study of Mus musculus with 16 samples.

Results

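Kidney cortex of mice that had lost Vhl alone was compared with wild-type cortex. The comparison rested on 8 arrays, 4 per group, of the 16 in the series, chosen by the titles of the samples, and on all 22180 genes that could be named. Vhl mutants carried floxed Vhl on both alleles and the Ksp-Cre transgene (VhlF/FKsp-Cre) on a mixed background of C57BL/6, BALB/c and 129, whereas wild-type mice were C57BL/6 with no floxed allele or Cre named. Both groups were 3 months old and on a normal diet. Each contrast of these groups therefore also compares strains and the presence of Cre, which cannot be told apart from the loss of Vhl. To set the result beside a contrast without that labelled difference, double mutants (VhlF/FPbrm1F/FKsp-Cre) were compared with Pbrm1 mutants (floxed Pbrm1 with Ksp-Cre). Both of these groups had 4 arrays, were 3 months old and had the same labelled mixed background and Cre, and they share no array with the first contrast. A shared label of a mixed background does not show that both groups carried the same strain alleles. Per its design text, the series asked which expression changes come first after the loss of these tumor suppressors of clear cell renal cell carcinoma.

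Vhl encodes the substrate receptor of a ubiquitin ligase that binds the alpha subunits of hypoxia-inducible factors (HIF) once prolyl hydroxylases have used oxygen to hydroxylate them, and so sends them for degradation. Without Vhl the alpha subunits persist in normal oxygen, pair with ARNT and switch on genes of glucose uptake, glycolysis, vessel growth and matrix modification. Ksp-Cre is driven by the promoter of Cdh16, the kidney-specific cadherin of tubule epithelium, so endothelium, stroma and immune cells of the cortex keep Vhl.

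Levels are given on the log2 scale of robust multi-array averaging (RMA), and fold changes come from differences of these levels in a limma fit. A gene counted as called where its p, adjusted by Benjamini and Hochberg's method, was under 0.05. Of the 22180 genes, 851 were called (3.84%), 453 higher (2.04%) and 398 lower (1.79%) in Vhl mutants. Among these, 186 rose and 76 fell at least 1.5-fold, and 29 rose and 13 fell at least 2-fold. The arrays of the groups did not overlap for 434 of the genes called higher and 378 of those called lower. Without overlap were 2392 of all genes tested (10.8%), 5.07% of all genes with Vhl mutants above and 5.71% with Vhl mutants below. The split of the calls depended on scaling: 53.2% were higher as deposited, and 36.3% (355 higher and 622 lower) after each array was centred on its median. The descriptions give the 4 arrays of a group only 2 different numbers, each followed by a letter, L or R. In Vhl mutants and in wild type, replicates 1 and 2 share one number and replicates 3 and 4 the other, with an L and an R each. Pbrm1 mutants are numbered likewise, whereas in double mutants replicates 1, 2 and 3 share a number and replicate 4 has the other alone. What numbers and letters mark is not given. If a number is an animal, each group holds 2 animals, and an SD over 4 arrays mixes variation within and between animals. The fit takes the number as a random block with 1 correlation for all genes (0.0838), which can be too low for single genes, so that their p-values would be too small. With arrays averaged per number, 188 genes were called higher and 58 lower.

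Defining genes of cortical tubules were bright on all arrays. Slc34a1, the phosphate transporter of the proximal tubule, ranged over 12.75 to 12.80 in Vhl mutants and 12.79 to 12.85 in wild type. Umod, the most abundant protein of the thick ascending limb, averaged 12.04 ± 0.09 in Vhl mutants and 12.01 ± 0.07 in wild type (SD, n = 4 arrays, as throughout). The probe set of Vhl itself read 6.30, 6.28, 6.29 and 6.25 in Vhl mutants, against 6.55, 6.24, 6.23 and 6.34 in wild type (adjusted p = 0.85). The files do not show whether it lies in the deleted part, and cells without Cre add to it, so it checks nothing. Cdh16, whose promoter drives the Cre, measured 10.57 ± 0.06 in Vhl mutants and 10.79 ± 0.05 in wild type, a fall of 1.17-fold (adjusted p = 0.0082). The Cdh16 call was lost without wild-type replicates 1 and 2, without Vhl mutant replicates 3 and 4, and with arrays averaged per number.

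Among genes of the oxygen-sensing pathway, the largest difference was that of 1 hydroxylase. Egln3, the prolyl hydroxylase PHD3, measured 8.63, 8.52, 8.73 and 8.76 in the 4 Vhl mutant arrays, against 6.57, 6.70, 6.50 and 6.10 in wild type. Every mutant array lay above every wild-type array, and the rise was 4.56-fold (log2 fold change 2.19 ± 0.14 SE, adjusted p = 1.4e-08). Egln1, the prolyl hydroxylase PHD2, rose 1.20-fold (8.47 ± 0.05 in Vhl mutants and 8.20 ± 0.04 in wild type, adjusted p = 0.018), but not once wild-type replicate 1 or mutant replicate 3 was left out. The third prolyl hydroxylase, Egln2, measured 7.66 ± 0.13 in Vhl mutants and 7.76 ± 0.05 in wild type (adjusted p = 0.56). Of 17 tested genes of this list, 2 rose and 1 fell, and only Egln3 was called with averaged arrays. The one that fell was Hif1a, on the probe set of higher signal: 6.96, 7.14, 7.31 and 7.39 in Vhl mutants, against 7.50, 7.65, 7.6 and 7.55 in wild type (1.3-fold lower, adjusted p = 0.017).

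The probe sets of Hif1a went opposite ways. The second one read 5.41, 5.16, 5.81 and 5.77 in Vhl mutants, against 3.33, 3.87, 3.75 and 3.38 in wild type. Its wild-type mean of 3.58 lies under the background level of 3.72, the highest lower quartile of any array, so no fold is given. The groups do not overlap on either probe set, and the direction for Hif1a is not settled by these values. Epas1, which encodes HIF-2 alpha, measured 9.28 ± 0.12 in Vhl mutants and 9.03 ± 0.08 in wild type and was not called (adjusted p = 0.059), although its groups did not overlap. Arnt, the shared beta subunit, averaged 8.43 in both groups, and Hif1an, the asparaginyl hydroxylase that limits HIF activity, averaged 6.01 ± 0.15 in Vhl mutants and 6.32 ± 0.21 in wild type (adjusted p = 0.16).

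Of 36 tested HIF target genes outside glycolysis, 12 were called higher and 0 lower, against 2.04% and 1.79% of all genes. Their median log2 difference was 0.14, beside -0.01 over all genes tested. Igfbp1, a secreted binding protein of insulin-like growth factors, measured 6.64, 7.0, 6.55 and 7.09 in Vhl mutants, against 5.33, 5.68, 5.63 and 5.82 in wild type (2.31-fold, adjusted p = 5.5e-04). Adm, the vasodilator adrenomedullin, measured 6.81, 6.91, 6.81 and 6.75 in Vhl mutants, against 5.54, 5.32, 5.96 and 5.91 in wild type (2.20-fold, adjusted p = 3.7e-05). The groups overlap for neither gene, and for Adm the mutant arrays lie closer together than the wild-type arrays. Ndufa4l2, a mitochondrial protein that lowers respiratory activity in hypoxic cells, rose 1.96-fold. The 2-oxoglutarate dioxygenase Plod2, which hydroxylates lysines of collagen, rose 1.78-fold from its own list of 17 such enzymes and was the only one of them called. Smaller rises were Pfkfb3 (1.75-fold), whose product stimulates phosphofructokinase, Stc2 (1.71-fold), a secreted glycoprotein, Ero1a (1.52-fold), the oxidase of disulfide formation, and Bnip3 (1.36-fold), a mitophagy receptor. Fam162a, a mitochondrial protein of hypoxic cell death, rose 1.48-fold and Wsb1, a ubiquitin ligase adaptor, 1.39-fold, although the Wsb1 call ended without Vhl mutant replicate 2.

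Several classical targets did not pass. Car9, the carbonic anhydrase IX used as a marker of clear cell carcinoma, measured 6.46, 6.51, 6.60 and 6.66 in Vhl mutants, against 6.42, 6.64, 6.34 and 6.65 in wild type (adjusted p = 0.92). These arrays lie in one common range. Vegfa, the main angiogenic ligand, rose by little but evenly: 10.40, 10.37, 10.34 and 10.41 in Vhl mutants, against 10.13, 10.11, 10.09 and 10.13 in wild type (1.20-fold, adjusted p = 0.0026). Epo, the erythropoietin gene, which stromal cells outside the Cre domain express, measured 3.97 ± 0.23 in Vhl mutants and 4.27 ± 0.14 in wild type, near the background level (adjusted p = 0.28). Angptl4, a lipase inhibitor, averaged 8.64 ± 0.26 in Vhl mutants and 8.08 ± 0.53 in wild type (adjusted p = 0.084), and the lipid droplet coat gene Plin2 averaged 8.32 ± 0.11 in Vhl mutants and 8.47 ± 0.09 in wild type (adjusted p = 0.38). The procollagen prolyl hydroxylases P4ha1 (adjusted p = 0.29) and P4ha2 (adjusted p = 0.90) and the histone demethylase Kdm3a (adjusted p = 0.51), all known targets in cultured cells, were not called either.

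Of 18 tested glycolysis genes, 11 rose and 0 fell, and their median log2 difference was 0.41. The steps differed in size. At the entry of glucose, the transporter Slc2a1 rose 1.72-fold and the hexokinase Hk2 rose 2.67-fold, with 6.18, 6.22, 6.24 and 6.21 in Vhl mutants, against 4.89, 4.61, 4.96 and 4.73 in wild type (adjusted p = 3.3e-07). The other hexokinase listed, Hk1, measured 7.24 ± 0.08 in Vhl mutants and 7.30 ± 0.05 in wild type (adjusted p = 0.76). Phosphofructokinase showed the same contrast among its isoforms. Pfkp measured 9.11, 8.88, 9.04 and 9.02 in Vhl mutants, against 7.73, 7.88, 7.66 and 7.94 in wild type (2.31-fold, adjusted p = 1.3e-08), and Pfkl rose 2.00-fold (adjusted p = 7.4e-07). Pfkm, the muscle isoform, measured 5.89 ± 0.15 in Vhl mutants and 6.12 ± 0.15 in wild type (adjusted p = 0.33).

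Of the later enzymes, some rose and others did not pass. Aldoc rose 1.54-fold, Pkm 1.54-fold, Pgam1 1.34-fold and Pgk1 1.3-fold, whereas Gapdh (12.68 ± 0.03 in Vhl mutants and 12.55 ± 0.09 in wild type, adjusted p = 0.17) and Tpi1 (11.31 ± 0.05 and 11.15 ± 0.01 in the same order, adjusted p = 0.059) did not pass. Pgam1 fell by 0.24 on the log2 scale on a second, dimmer probe set, on which no test was run. The outlets of pyruvate moved together: Pdk1, the kinase that closes pyruvate dehydrogenase, rose 1.83-fold, Ldha, lactate dehydrogenase A, 1.32-fold, and Slc16a3, the lactate exporter MCT4, 3.03-fold. Slc16a3 measured 6.41, 6.35, 6.58 and 6.48 in Vhl mutants, against 4.50, 5.02, 4.94 and 4.96 in wild type (adjusted p = 1.3e-07), so its lowest mutant array exceeded its highest wild-type array. The gluconeogenic genes Pck1 (adjusted p = 0.58) and G6pc (adjusted p = 0.053) were not called, and none of the 13 tested genes of that list was called with limma. Of 10 glycogen genes 1 rose, the glycogen synthase Gys1 (1.18-fold, adjusted p = 0.035), and not without wild-type replicate 1 or 3 or several of the mutant arrays. With arrays averaged per description number, 10 of the 18 glycolysis genes and 7 of the 36 HIF targets were called higher.

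**Figure D1:**
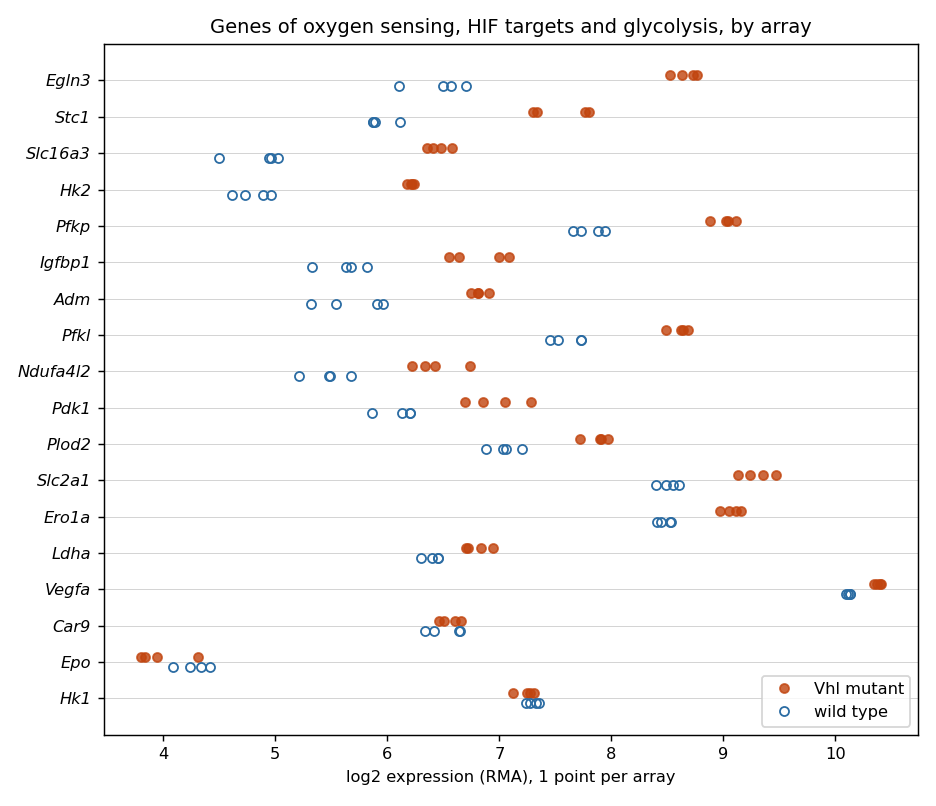
Log2 expression (RMA, horizontal axis) of genes of oxygen sensing, HIF targets and glycolysis, with Stc1, in each of the 4 Vhl mutant arrays (filled, upper row of each gene) and the 4 wild-type arrays (open, lower row). The groups are separate from Egln3 (2.19 apart) down to Vegfa (0.27 apart) and mixed for Car9, Epo and Hk1.

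The start regions of the 6 largest called rises of the oxygen-sensing, HIF target and glycolysis lists are shown, because HIF binds the core letters ACGTG or, in fewer cases, GCGTG. The sequences are those of RefSeq (GRCm38.p6), 250 bases before to 50 after the annotated start, read 5′ to 3′ on the strand of the gene, with ACGTG or GCGTG, or their reverse complements CACGT or CACGC, in capitals. Egln3 is at chr12:54203825-54204124 on the minus strand, Slc16a3 at chr11:120948817-120949116 on the plus strand and Hk2 at chr6:82774405-82774704 on the minus strand. Pfkp is at chr13:6648722-6649021 on the minus strand, Igfbp1 at chr11:7197537-7197836 on the plus strand and Adm at chr7:110627407-110627706 on the plus strand.
Egln3: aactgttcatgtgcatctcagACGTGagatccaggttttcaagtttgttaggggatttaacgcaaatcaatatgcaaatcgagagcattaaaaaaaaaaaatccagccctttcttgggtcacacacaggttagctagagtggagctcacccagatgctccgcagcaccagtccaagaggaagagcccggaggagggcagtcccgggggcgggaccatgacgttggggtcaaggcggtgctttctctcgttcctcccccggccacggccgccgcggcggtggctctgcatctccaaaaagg
Slc16a3: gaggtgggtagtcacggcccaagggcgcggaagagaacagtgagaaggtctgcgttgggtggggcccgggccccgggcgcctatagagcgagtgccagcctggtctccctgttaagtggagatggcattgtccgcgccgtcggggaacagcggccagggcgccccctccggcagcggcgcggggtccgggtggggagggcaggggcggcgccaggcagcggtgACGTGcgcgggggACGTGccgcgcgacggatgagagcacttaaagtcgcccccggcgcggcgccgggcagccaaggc
Hk2: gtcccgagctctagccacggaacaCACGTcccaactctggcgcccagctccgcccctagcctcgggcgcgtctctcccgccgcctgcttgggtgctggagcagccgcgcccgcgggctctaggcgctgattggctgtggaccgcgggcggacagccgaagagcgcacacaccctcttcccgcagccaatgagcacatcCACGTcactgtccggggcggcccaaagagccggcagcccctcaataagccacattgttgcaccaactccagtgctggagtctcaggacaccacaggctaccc
Pfkp: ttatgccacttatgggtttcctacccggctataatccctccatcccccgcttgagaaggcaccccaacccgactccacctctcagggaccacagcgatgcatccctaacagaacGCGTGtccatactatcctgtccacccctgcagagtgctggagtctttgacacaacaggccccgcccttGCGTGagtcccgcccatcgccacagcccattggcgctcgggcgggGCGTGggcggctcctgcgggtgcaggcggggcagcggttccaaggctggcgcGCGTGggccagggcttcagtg
Igfbp1: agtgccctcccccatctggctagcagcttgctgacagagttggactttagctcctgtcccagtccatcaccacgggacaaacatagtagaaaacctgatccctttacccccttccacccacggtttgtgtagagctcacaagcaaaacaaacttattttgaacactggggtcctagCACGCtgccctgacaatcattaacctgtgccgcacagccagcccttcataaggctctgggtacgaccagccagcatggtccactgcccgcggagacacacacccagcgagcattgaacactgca
Adm: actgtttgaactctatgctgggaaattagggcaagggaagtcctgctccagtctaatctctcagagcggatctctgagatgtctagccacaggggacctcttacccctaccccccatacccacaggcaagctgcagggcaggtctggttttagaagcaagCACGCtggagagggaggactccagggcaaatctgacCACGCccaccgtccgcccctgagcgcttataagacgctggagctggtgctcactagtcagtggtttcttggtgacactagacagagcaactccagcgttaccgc

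Egln3 held 1 ACGTG, and Slc16a3 and Hk2 held 2 each, with no GCGTG. The other 3 held no ACGTG: Pfkp had 4 GCGTG, Adm had 2 and Igfbp1 had 1. Of the 71 genes of the oxygen-sensing, HIF target and glycolysis lists, 59 had a start region in the table. ACGTG stood in 16 of the 22 called higher (72.7%), in 16 of the other 37 (43.2%) and in 23.8% of the 16990 tested genes with a region. Over all 453 genes called higher, 328 had a region and 23.5% of these held ACGTG. The HIF target list was drawn up from genes known to respond to HIF. The oxygen-sensing and glycolysis lists were drawn up by pathway and hold such genes among others. The first share therefore describes the lists and is no evidence of binding. A match is a description of letters and not a site, and a window of this length leaves out distant sites.

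Calls among genes of oxidative metabolism are given beside the 3.84% of all genes tested that were called. In lists this short, few or no calls do not set a list apart from all genes. In respiratory complex I, 1 of 33 tested genes was called, Ndufa10, which fell 1.19-fold (adjusted p = 0.017), while Ndufs1, its largest core subunit, averaged 9.28 ± 0.16 in Vhl mutants and 9.30 ± 0.06 in wild type (adjusted p = 0.94). Among complexes II to V, Uqcrb rose 1.22-fold and Uqcrc1 fell 1.11-fold, 2 of 38 tested. The Ndufa10 call ended without Vhl mutant replicate 3, the Uqcrb call on leaving out any 1 of 5 arrays and the Uqcrc1 call on leaving out any 1 of 7. None of the 18 citric acid cycle genes was called with limma, and citrate synthase, Cs, had an adjusted p of 0.29. Nor was any of the 16 genes of mitochondrial biogenesis and dynamics, with the coactivator Ppargc1a at 9.68 ± 0.05 in Vhl mutants and 9.83 ± 0.10 in wild type (adjusted p = 0.36). Cox4i2, the hypoxic isoform of a subunit of complex IV, counted among the HIF targets, rose 1.43-fold, with levels of 5.12 ± 0.08 in Vhl mutants and 4.6 ± 0.21 in wild type, but not once wild-type replicate 1 or mutant replicate 1 or 3 was left out. In fatty acid oxidation and PPAR-alpha signalling, 3 of 32 genes rose and 1 fell, and 0 were called with averaged arrays. Cyp4a14, a fatty acid hydroxylase that PPAR-alpha induces, measured 10.02, 10.20, 8.90 and 9.05 in Vhl mutants, against 7.02, 6.98, 8.63 and 8.39 in wild type (3.45-fold, adjusted p = 0.0021). Replicates 3 and 4 of the groups lie close together for this gene and replicates 1 and 2 far apart, and the call ended without wild-type or without Vhl mutant replicates 1 and 2. Acot2, an acyl-CoA thioesterase, rose 1.38-fold. The receptor Ppara (adjusted p = 0.95) and the rate-limiting Cpt1a (adjusted p = 0.81) were not called.

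Stc1, the secreted stanniocalcin that acts on calcium and phosphate transport, measured 7.34, 7.30, 7.76 and 7.80 in Vhl mutants, against 6.11, 5.89, 5.87 and 5.87 in wild type (3.07-fold, adjusted p = 3.3e-07). The groups are more than 1 unit apart. Casr, the calcium-sensing receptor, fell 1.37-fold (8.24 ± 0.08 in Vhl mutants and 8.69 ± 0.03 in wild type, adjusted p = 0.0018). Of 30 angiogenic and vasoactive genes, 6 rose and 1 fell, and 2 were called higher with averaged arrays. Vegfa was the only ligand among the 6, beside receptors: Aplnr, which binds apelin, rose 1.73-fold, Ednrb, which binds endothelin, 1.62-fold, Calcrl, the receptor part that binds adrenomedullin, 1.3-fold, and Kdr, which binds VEGF-A, 1.22-fold. The Kdr call was lost on leaving out any 1 of 7 of the 8 arrays. Endothelial markers were higher as well, and their list shares genes with this one, Kdr among them. The part of endothelial markers in these rises was not tested. Angpt2, a ligand of the receptor Tie2, fell 1.65-fold (5.03 ± 0.36 in Vhl mutants and 5.75 ± 0.14 in wild type, adjusted p = 0.035), and its call was lost on leaving out any 1 of 6 arrays.

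Along the nephron, intercalated cell and thick ascending limb markers held the most calls by number, all lower. In the much shorter thin limb list, 2 of 6 genes fell and 1 rose. In bulk cortex, fewer cells of a type and less RNA per cell cannot be told apart. Of 23 tested intercalated cell genes, 10 fell and 0 rose (median log2 difference -0.35), and 7 were called lower with arrays averaged per number. Rhbg, an ammonia transporter, measured 7.96, 8.07, 7.08 and 7.26 in Vhl mutants, against 8.41, 8.39, 8.64 and 8.70 in wild type (1.92-fold lower, adjusted p = 0.0016). The arrays of replicates 3 and 4 are the lowest of the mutants and the highest of wild type. Slc26a4, the chloride-bicarbonate exchanger pendrin of type B cells, measured 7.33, 7.72, 7.38 and 7.63 in Vhl mutants, against 8.36, 8.43, 8.36 and 8.34 in wild type (1.81-fold lower, adjusted p = 4.7e-05). Insrr, an alkali-sensing receptor, fell 1.79-fold, Rhcg, a second ammonia transporter, 1.67-fold, and Foxi1, the transcription factor that specifies these cells, 1.48-fold. The Foxi1 call was lost without wild-type replicates 1 and 2 and without Vhl mutant replicates 3 and 4. Its log2 difference was -0.56 here and -0.09 in double mutants over Pbrm1 mutants, and the difference of both effects was not called. Car15, a membrane-bound carbonic anhydrase, fell 1.61-fold.

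In the thick ascending limb 6 of 18 genes fell and 0 rose, and 3 were called lower with averaged arrays. Bsnd, the chloride channel subunit barttin, which intercalated cells also express, measured 7.46, 7.36, 7.17 and 7.36 in Vhl mutants, against 7.96, 8.07, 7.88 and 8.1 in wild type (1.58-fold lower, adjusted p = 1.1e-04). Wfdc15b, a secreted protease-inhibitor-like protein, fell 1.59-fold. Slc12a1, the Na-K-2Cl cotransporter, fell 1.27-fold (adjusted p = 0.031), a call lost on leaving out any 1 of 5 arrays, whereas Umod was not called (adjusted p = 0.88). In the distal convoluted tubule 3 of 16 fell, among them the kinase Wnk4 (1.23-fold, adjusted p = 0.025, not called on leaving out any 1 of 4 arrays), while the cotransporter Slc12a3 that it regulates was not called (adjusted p = 0.30). None of the 16 was called with averaged arrays. In principal cells 4 of 17 fell and 1 rose, against 1 lower and 1 higher with averaged arrays, and 11 of the 17 differences were positive (median 0.12). Kcne1, a potassium channel subunit, fell 1.63-fold, and Scnn1a, the alpha subunit of the epithelial sodium channel, and Hsd11b2, which protects the mineralocorticoid receptor from cortisol-like steroids, 1.33-fold each. The water channel Aqp2 measured 8.30 ± 0.17 in Vhl mutants and 8.22 ± 0.12 in wild type (adjusted p = 0.76). Klk1, the kallikrein of the connecting tubule, fell 1.29-fold and the calcium-binding Calb1 was not called (adjusted p = 0.87). Of the claudins of tight junctions, Cldn4 (1.63-fold) and Cldn1 (1.48-fold) were among 3 of 21 that rose.

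In the early proximal tubule 1 of 25 genes rose and 1 fell, Hnf4a, its main transcription factor (1.21-fold lower, adjusted p = 0.031, not called on leaving out any 1 of 4 arrays). The endocytic receptor Lrp2 measured 12.24 ± 0.08 in Vhl mutants and 12.31 ± 0.04 in wild type (adjusted p = 0.48). In the S3 segment 1 of 15 was called, the amino acid transporter Slc7a13 (1.19-fold lower, adjusted p = 0.0095). That call was lost without wild-type or without Vhl mutant replicates 1 and 2, and with averaged arrays. The median log2 difference was -0.03 for the early proximal tubule and -0.07 for S3. Over all genes tested, 2.04% were called higher and 1.79% lower, so these few calls do not set either list apart.

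**Figure D2:**
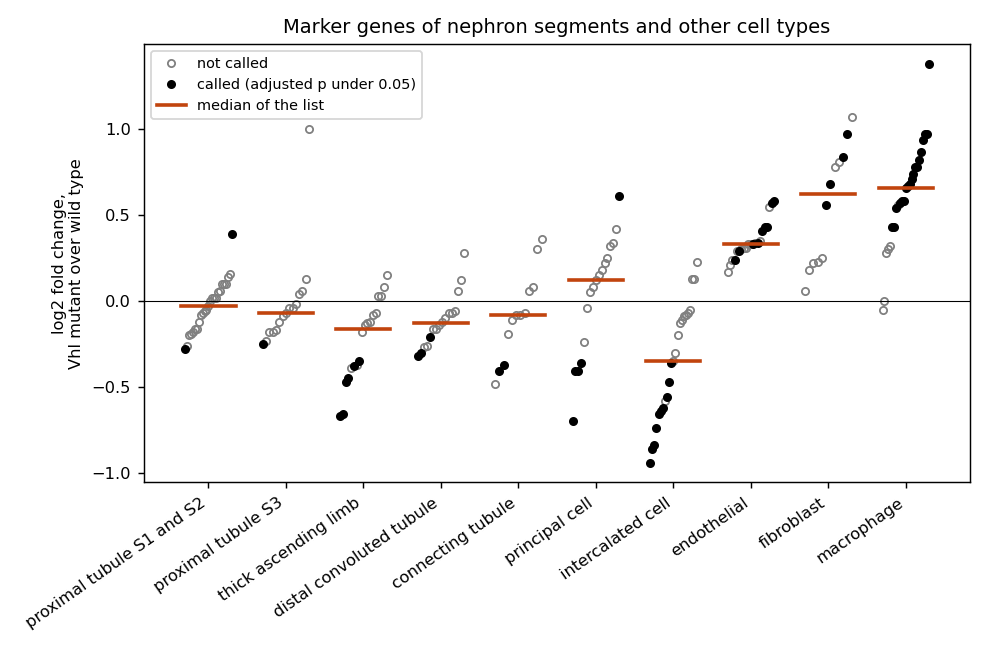
Log2 fold change of Vhl mutants over wild type (vertical axis) for each tested marker of 7 nephron segments or cell types and of endothelium, fibroblasts and macrophages, filled where called, with the median of each list as a bar. Medians run from -0.35 for intercalated cells to 0.66 for macrophages.

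Injury markers of tubule cells rose with no fall: 13 of 25 were called higher. Lcn2, the lipocalin NGAL, measured 7.79, 7.30, 7.31 and 6.95 in Vhl mutants, against 5.78, 5.48, 5.36 and 5.81 in wild type (3.32-fold, adjusted p = 6.5e-06). Havcr1, the injury receptor KIM-1, was the most variable: 6.91, 6.47, 6.24 and 5.51 in Vhl mutants, against 3.71, 4.39, 4.80 and 4.45 in wild type (3.85-fold, log2 fold change 1.95 ± 0.47 SE, adjusted p = 0.022). Leaving out wild-type replicate 1 or mutant replicate 1 or 3 ended its call. The keratins Krt19 (1.92-fold) and Krt18 (1.90-fold) and the cell cycle inhibitor Cdkn1a (1.76-fold) rose too. Of 28 STAT3 target and acute phase genes, 6 rose and 0 fell. Fgg, the gamma chain of fibrinogen, measured 6.52, 7.18, 6.95 and 6.43 in Vhl mutants, against 4.95, 5.29, 5.70 and 5.67 in wild type (2.58-fold, adjusted p = 3.4e-04), the oncostatin M receptor Osmr rose 1.96-fold, the copper carrier Cp 1.77-fold and the alpha chain Fga 1.69-fold. Socs3, the feedback inhibitor of that pathway, rose 1.4-fold with an adjusted p of 0.048 that did not hold on leaving out any 1 of 6 arrays. Of 36 cell cycle genes 2 were called higher, against 2.04% of all genes. Among the 2 was the proliferation marker Mki67 (6.4 ± 0.17 in Vhl mutants and 5.54 ± 0.28 in wild type, 1.82-fold, adjusted p = 0.0016), and Top2a was not called (adjusted p = 0.053). Of the 36 differences 32 were positive, against 47.6% of all genes, and their median was 0.18. For 14 of the 36 every mutant array lay above every wild-type array, against 5.07% of all genes.

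Macrophage markers held the largest share of calls among the cell type lists. Of 25 macrophage markers 19 rose and 0 fell, 13 with averaged arrays. The median level of the list, relative to the wild-type mean, was 0.83, 0.58, 0.63 and 0.54 in Vhl mutants and 0.04, 0.12, -0.03 and -0.06 in wild type. Lyz2, the lysozyme of macrophages, measured 8.39, 7.85, 7.77 and 7.39 in Vhl mutants, against 6.71, 6.78, 5.92 and 6.45 in wild type (2.60-fold, adjusted p = 3.4e-04). The lysosomal protease Ctss and the pore-forming Mpeg1 rose 1.96-fold each and the lysosomal glycoprotein Cd68 1.92-fold. The receptor that sustains macrophages, Csf1r, did not follow: 7.96, 7.90, 7.73 and 7.48 in Vhl mutants, against 7.98, 7.95, 7.59 and 7.76 in wild type (adjusted p = 0.88). Adgre1, a surface receptor of mature macrophages, measured 6.25, 5.41, 5.24 and 5.27 in Vhl mutants, against 5.24, 4.99, 5.16 and 4.54 in wild type (adjusted p = 0.17), and 1 mutant array stands above the rest. None of the 10 neutrophil genes was called with limma, and S100a8 lay under background in both groups (2.77 ± 0.11 in Vhl mutants and 2.78 ± 0.21 in wild type).

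Chemokines, antigen presentation and complement were higher in part as well. The part of the macrophage markers in these rises was not tested. Some genes stand on several lists: Cx3cr1 and C1qb are also counted as macrophage markers, and C7 as a fibroblast marker. Of 31 chemokine and receptor genes 5 rose, with Ccl5 at 1.65-fold, the fractalkine receptor Cx3cr1 at 1.60-fold and the monocyte receptor Ccr2 at 1.56-fold. The Ccl5 and Ccr2 calls ended without Vhl mutant replicate 3, and the Ccr2 call also without wild-type replicate 1 or 2. Of 17 genes of antigen presentation 7 rose, with the class II chains H2-Ab1 at 1.72-fold and H2-Aa at 1.61-fold, and 3 were called with averaged arrays. Histocompatibility genes differ between mouse strains, and strain was not tested apart from genotype here. Of 20 complement genes 8 rose and 1 fell: the anaphylatoxin receptor C3ar1 rose 1.99-fold, the terminal component C7 1.79-fold, the inhibitor Serping1 1.77-fold and C1qb 1.76-fold, while Cfb, factor B of the alternative pathway, fell 1.27-fold. With averaged arrays 4 complement genes were called higher and 0 lower. Of 24 interferon-stimulated genes 5 rose, led by the antiviral enzyme Rsad2 (7.46, 7.53, 7.52 and 7.49 in Vhl mutants, against 6.68, 6.78, 6.87 and 6.95 in wild type, 1.61-fold, adjusted p = 2.6e-05). Of 22 TNF and NF-kB genes 5 rose, among them the feedback inhibitor Tnfaip3 (1.58-fold). In each of the interferon and TNF lists 2 were called with averaged arrays. In lymphoid lists, 1 of 17 T and NK cell genes rose and Cd3e was not called (adjusted p = 0.27). The antibody genes Jchain (2.09-fold) and Ighm (1.76-fold) rose among 9 genes of B and plasma cells, and neither call held without wild-type replicates 1 and 2. In the same list Xbp1, a transcription factor of secretory cells and of the unfolded protein response, fell 1.41-fold (adjusted p = 0.025), but not on leaving out any 1 of 4 arrays.

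Stromal and vascular lists held mostly rises. Of 21 endothelial genes 9 rose and 0 fell, and all 21 had positive differences (median 0.33), against 47.6% of all genes, with Cdh5, the junction cadherin of endothelium, and Emcn, an endothelial sialomucin, at 1.49-fold each. Averaging the arrays per number left 4 called. Of 12 fibroblast genes 4 rose, with the proteoglycan Dcn at 8.86, 8.89, 9.03 and 8.98 in Vhl mutants, against 7.79, 8.21, 7.89 and 7.97 in wild type (1.97-fold, adjusted p = 0.005). With averaged arrays 1 of the 12 was called, and Dcn was not (adjusted p = 0.072). Of 12 smooth muscle, mesangial and renin cell genes 3 rose and 1 fell. The median level of this list, relative to the wild-type mean, was 0.55, 0.52, 0.08 and 0.09 in Vhl mutants. Wild-type arrays lay from -0.04 to 0.04. Its median log2 difference was 0.33, or 0.08 without mutant replicates 1 and 2. The pericyte regulator Rgs5 rose 1.93-fold, the receptor Notch3 1.54-fold and Pdgfrb 1.47-fold, the last not called once wild-type replicate 1 or 2 or mutant replicate 1 was left out. Mylk, the myosin light chain kinase, fell 1.25-fold (adjusted p = 0.043), but not on leaving out any 1 of 5 arrays. Of 31 matrix genes 10 rose and 0 fell, and 6 were called with averaged arrays. Col12a1, a fibril-associated collagen, measured 6.92, 6.90, 6.33 and 6.04 in Vhl mutants, against 5.36, 5.30, 5.27 and 5.36 in wild type (2.34-fold, adjusted p = 1.4e-04). The adhesion protein Tgfbi (1.98-fold), the calcification inhibitor Mgp (1.94-fold) and fibronectin, Fn1 (1.74-fold), rose as well, as did the matrix protease Mmp14 (1.69-fold) and, at 5.50 ± 0.16 in Vhl mutants and 4.68 ± 0.13 in wild type, the collagen cross-linking enzyme Lox (1.77-fold, adjusted p = 0.016). The Mmp14 call ended without wild-type replicate 1 and the Lox call without Vhl mutant replicate 1. Of markers of tissue that a dissection could include, none was called with limma: 10 adipose, 7 adrenal, 8 skeletal muscle and 6 urothelial genes. With 3.84% of all genes called, lists this short cannot show that both groups held equal parts of such tissue. Only 3 of the 7 adrenal genes reached the background level in a group, and all 6 urothelial differences were positive. The median urothelial level was 0.07, 0.91, -0.04 and -0.16 in Vhl mutants and -0.05, -0.11, -0.19 and 0.30 in wild type. The high urothelial value is Vhl mutant replicate 2, and its part in other results was not tested beyond the fits that leave it out.

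**Figure D3:**
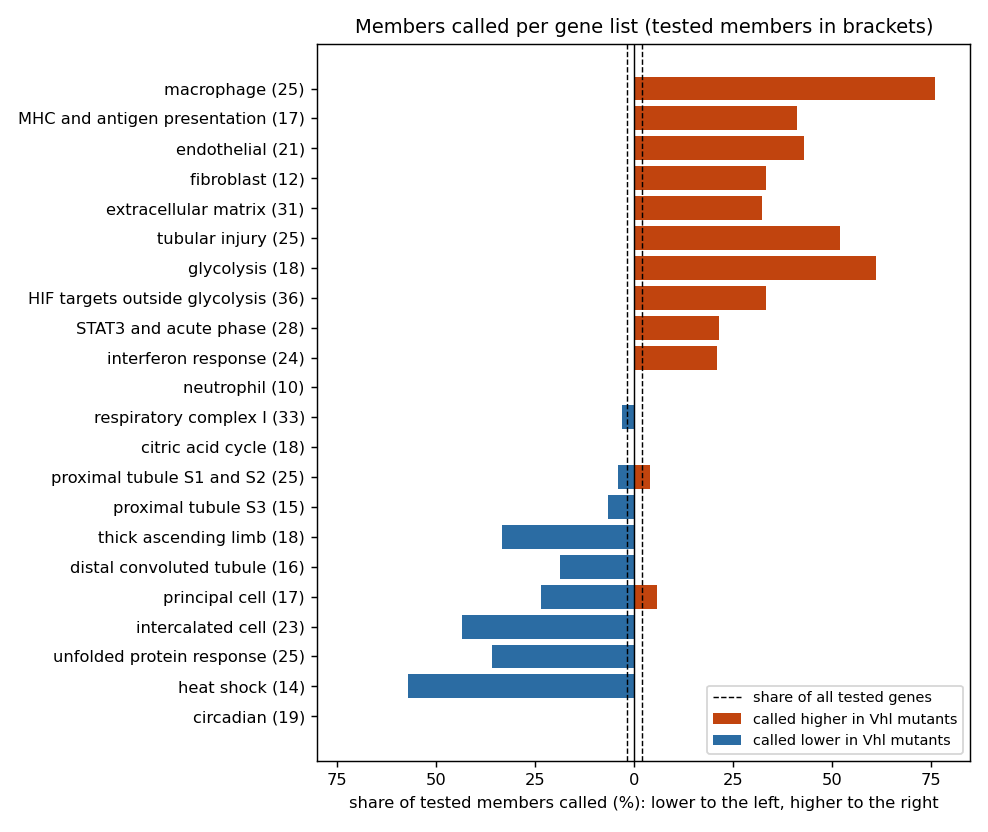
Share of the tested members of 22 gene lists called higher (to the right) or lower (to the left) in Vhl mutants than in wild type, in percent, with the share of all tested genes dashed (2.04% higher, 1.79% lower). Macrophage, glycolysis and tubular injury lists have the longest bars to the right, and heat shock, intercalated cell and unfolded protein response lists to the left.

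The largest falls included stress genes whose wild-type levels followed the description number. Hspa1a, the inducible HSP70 chaperone, measured 6.13, 6.13, 6.42 and 6.59 in Vhl mutants, against 9.80, 10.02, 7.51 and 7.38 in wild type (5.13-fold lower, adjusted p = 0.0068). Wild-type replicates 1 and 2, which share a number, lie more than 2 units above replicates 3 and 4, which share the other. Hspa1a has a near-identical neighbour gene, and its probes may read both. The chaperone Hsph1 fell 2.11-fold (7.90 ± 0.09 in Vhl mutants and 8.98 ± 0.41 in wild type, adjusted p = 3.0e-04) and the co-chaperone Dnajb1 1.90-fold. In all, 8 of 14 heat shock genes fell and 0 rose, and all 14 had negative differences, whereas 47.6% of all genes had positive ones. Without wild-type replicates 1 and 2, 1 of the 14 was called, and with averaged arrays also 1.

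Of the genes of the unfolded protein response, 9 of 25 fell and 0 rose, and 1 was called without wild-type replicates 1 and 2. Hspa5, the endoplasmic reticulum chaperone BiP, measured 7.96, 8.04, 7.94 and 7.97 in Vhl mutants, against 9.01, 9.01, 8.65 and 8.36 in wild type (1.72-fold lower, adjusted p = 8.7e-04). Creld2 fell 1.65-fold and Hyou1 1.60-fold, both helpers of protein folding in that compartment. Of 25 immediate early genes 3 fell and 3 rose, and 2 were called higher and 0 lower with averaged arrays. Gadd45g (2.51-fold lower) and Jun (7.41, 7.35, 7.24 and 7.11 in Vhl mutants, against 8.48, 8.48, 7.74 and 7.69 in wild type, 1.76-fold lower) had the same split within wild type, while Egr1 (1.73-fold higher) and Myc (1.69-fold higher) had not. How the animals were killed or how long tissue waited before extraction is not given in the sources used here.

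Clock genes differed between the Vhl mutants themselves. Arntl, the activator BMAL1, measured 7.38, 7.67, 5.0 and 5.0 in Vhl mutants, against 5.82, 5.72, 5.69 and 5.67 in wild type (adjusted p = 0.63). Dbp, an output gene of the clock that peaks in the opposite phase, measured 7.21, 7.13, 9.73 and 9.73 in Vhl mutants, against 9.41, 9.33, 9.22 and 9.53 in wild type (adjusted p = 0.37). Npas2 and Per3, chosen after their values were seen, split in the same way: Npas2 measured 7.58, 7.56, 5.03 and 4.73 in Vhl mutants, against 5.43, 5.41, 5.69 and 5.41 in wild type, and Per3 measured 6.05, 6.12, 7.42 and 7.32 in Vhl mutants, against 7.18, 7.37, 7.31 and 7.39 in wild type. Within Vhl mutants, arrays of 1 number differed by 0.13 on average over the 19 clock genes and arrays of different numbers by 1.05. The same averages over all genes were 0.17 and 0.19. None of the 19 was called with limma, but without Vhl mutant replicates 3 and 4 2 were called higher and 10 lower. For these genes the mean of the Vhl mutants therefore averages a high pair and a low pair.

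**Figure D4:**
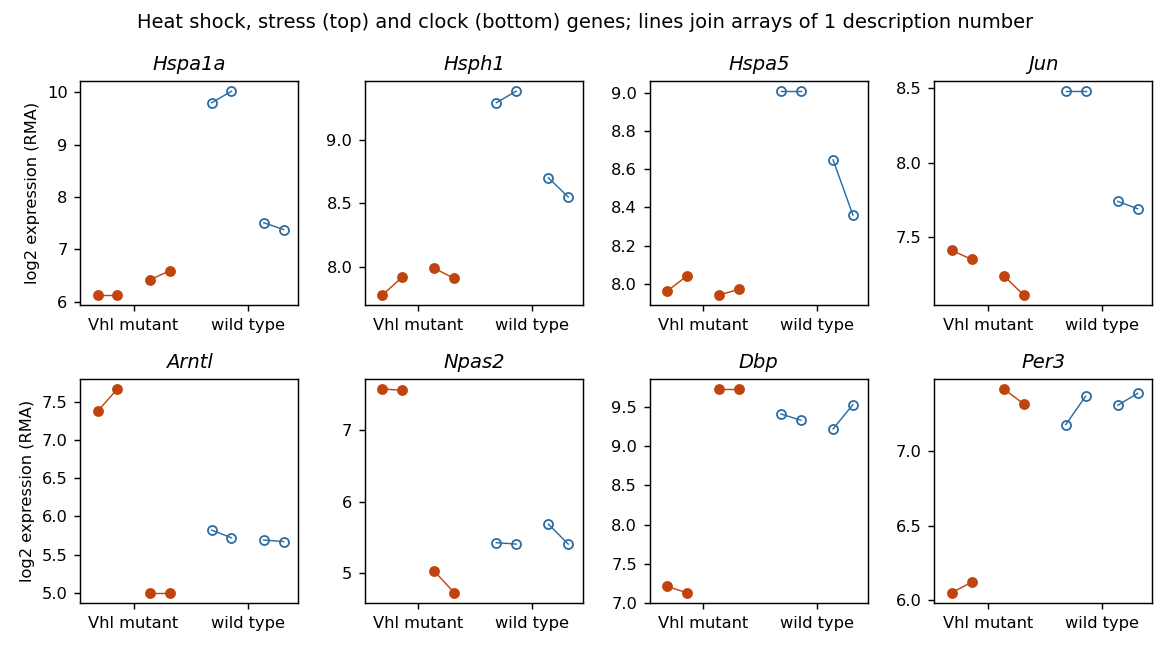
Log2 expression of stress genes (top) and clock genes (bottom) in Vhl mutant arrays (filled, left) and wild-type arrays (open, right), with lines joining arrays that share a description number; the vertical scales differ between panels. Stress genes split within wild type (Hspa1a at 9.80 and 10.02 against 7.51 and 7.38) and clock genes within Vhl mutants (Dbp at 7.21 and 7.13 against 9.73 and 9.73).

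Other large falls lay in metabolic enzymes and in genes without a listed pathway. Cyp4a12a, an arachidonic acid hydroxylase that androgens induce in mouse kidney, measured 3.34, 4.45, 4.0 and 5.0 in Vhl mutants, against 6.81, 6.85, 6.56 and 5.94 in wild type (5.06-fold lower, adjusted p = 2.3e-05). Its probes may also read a near-identical copy of the gene. The labels give no sex, and in all 16 arrays the female-specific Xist lay between 2.92 and 3.33 and the Y-linked Uty between 7.19 and 7.59, genes looked up after the other values were seen. Ces1g, a carboxylesterase, measured 6.30, 6.39, 5.20 and 5.49 in Vhl mutants, against 7.58, 7.40, 8.53 and 8.50 in wild type (4.47-fold lower, adjusted p = 3.9e-05). Tldc2, of the TLDc domain family, had the smallest spread of these: 6.82, 7.06, 6.82 and 7.04 in Vhl mutants, against 8.39, 8.28, 8.53 and 8.68 in wild type (2.90-fold lower, adjusted p = 1.3e-07). Among the remaining falls that ranked in the first 12 were Lonrf1 (2.25-fold), Cish, a feedback inhibitor of cytokine signalling (2.23-fold), Chrdl1, an antagonist of bone morphogenetic proteins (2.20-fold), the histone gene H2aj (2.10-fold), Slitrk6 (2.09-fold) and Osgin1 (2.01-fold), a redox-regulated gene. The Cish call was lost on leaving out any 1 of 5 arrays. The Lonrf1 call was lost without wild-type or without Vhl mutant replicates 1 and 2, and with averaged arrays.

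The highest-ranked rise was an immunoglobulin segment, Igkv9-120, at 7.16, 7.47, 5.95 and 5.99 in Vhl mutants, against 2.97, 3.22, 4.14 and 4.23 in wild type. Its wild-type mean of 3.64 lies under background and its sequence is shared in part with related segments, so no fold is given. Snord13, a small nucleolar RNA, measured 8.66, 9.41, 9.35 and 7.81 in Vhl mutants, against 6.67, 7.44, 6.57 and 4.25 in wild type (adjusted p = 0.016), a call that ended without Vhl mutant replicate 2 or 3. Gm3893 and 9030619P08Rik, predicted transcripts, again followed the number within wild type: Gm3893 measured 7.95, 7.73, 7.29 and 7.43 in Vhl mutants, against 7.18, 7.06, 4.52 and 4.52 in wild type, and 9030619P08Rik 7.40, 7.80, 7.82 and 7.71 in Vhl mutants, against 6.87, 6.68, 5.79 and 5.65 in wild type. Neither call held without wild-type replicates 3 and 4.

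Strain was examined through candidate genes. Of 17 tested genes known to vary between mouse strains, 2 rose and 1 fell, against 2.04% and 1.79% of all genes. Groups did not overlap for 6 of the 17 with Vhl mutants above and for 1 with Vhl mutants below. Over all genes these shares were 5.07% and 5.71%. The one that fell was Ide, the insulin-degrading enzyme, at 9.27, 9.38, 9.34 and 9.40 in Vhl mutants, against 9.97, 9.82, 9.85 and 9.90 in wild type (1.45-fold lower, adjusted p = 9.9e-06), while Wdfy1 averaged 6.61 ± 0.12 in Vhl mutants and 6.62 ± 0.11 in wild type. A floxed allele made in cells of another strain can carry neighbouring sequence of that strain with it. Of the 25 tested genes on each side of Vhl, 2 of the 50 were called, Sec13 (1.3-fold lower, adjusted p = 0.012) and Ift122 (1.21-fold lower, adjusted p = 0.043), both parts of cellular transport machinery. The Ift122 call was lost on leaving out any 1 of 5 arrays. The Sec13 call was lost without wild-type or without Vhl mutant replicates 1 and 2, and with averaged arrays. Of all genes tested, 3.84% were called.

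The second Vhl contrast, double mutants against Pbrm1 mutants, called 2260 genes (10.2%), 1513 higher (6.82%) and 747 lower (3.37%). Of the 453 genes called higher in Vhl mutants, 406 (89.6%) had a positive difference there, against 44.6% of all genes, and 317 (70.0%) were called higher, which is 21.0% of the 1513. Of the 398 called lower, 275 (69.1%) had a negative difference, against 55.4% of all genes, and 93 (23.4%) were called lower, which is 12.4% of the 747. The median log2 fold changes of the genes called higher were 0.54 in Vhl mutants over wild type and 0.58 in double mutants over Pbrm1 mutants, and those of the genes called lower were -0.38 and -0.10. The labelled background and Cre are the same on each side of the second contrast, which is measured in tubules without Pbrm1. Of the 17 genes known to vary between mouse strains, 4 rose and 1 fell in it. The difference of both effects was called for 5 of the 17, against 2.63% of all genes. Strain was thus not shown to be equal on each side.

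Egln3 rose by 2.19 on the log2 scale in Vhl mutants over wild type and by 2.30 in double mutants over Pbrm1 mutants, Hk2 by 1.41 and 1.5, Pgk1 by 0.38 and 0.40, and Tldc2 fell by 1.54 and 1.58 in the same order. In the HIF target list 19 of 36 rose in the second contrast and in glycolysis 13 of 18, and the macrophage list gave 19 of 25 again. Intercalated cell genes fell in 14 of 23. Of 25 early proximal tubule genes 2 rose and 10 fell in the second contrast, and the difference of effects was called for 8. In the second contrast 2 of 14 heat shock genes fell, and of 25 genes of the unfolded protein response 0 fell and 2 rose. The difference of effects was called for 3 of the 14 and 4 of the 25. The median heat shock level, relative to the wild-type mean, was -0.51 to -0.27 in double mutants and -0.37 to -0.34 in Pbrm1 mutants, beside -0.59 to -0.43 in Vhl mutants and -0.14 to 0.24 in wild type. All 3 mutant groups thus lay below every wild-type array in this list. Of the immediate early genes, 13 of 25 rose there. The difference of both effects was called for 583 genes (2.63%), including 87 of the 453 and 78 of the 398. It was called for Pfkp (1.21 in Vhl mutants over wild type and 1.98 in double mutants over Pbrm1 mutants, adjusted p of the difference 3.1e-04), for Stc1 (1.62 and 2.59, adjusted p = 0.0063) and for Lcn2 (1.73 and 3.51, adjusted p = 2.8e-04), all larger where Pbrm1 was also absent. It was called the other way for Cox4i2 (0.52 and -0.20, adjusted p = 0.039) and Rsad2 (0.68 and 0.06, adjusted p = 0.0036). It was also called for 3 genes whose fall in the first contrast was smaller or absent in the second. These were Hspa1a (-2.36 and 0.39, adjusted p = 0.034), Cyp4a12a (-2.34 and -0.63, adjusted p = 0.016) and Ces1g (-2.16 and -0.56, adjusted p = 0.021). For Car9, the difference was -0.70 (adjusted p = 0.060), with 0.04 in Vhl mutants over wild type and 0.75 in double mutants over Pbrm1 mutants.

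**Figure D5:**
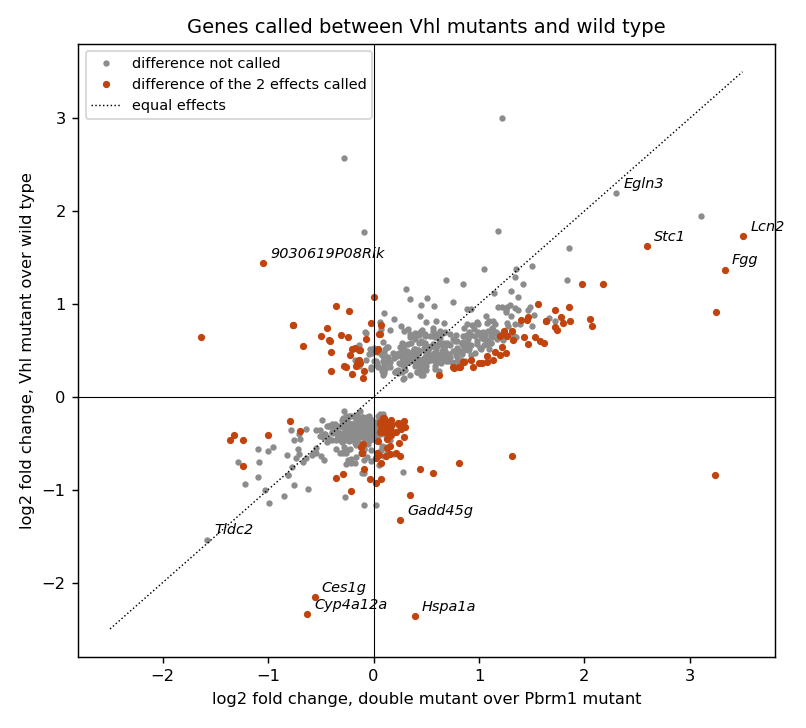
Log2 fold change of Vhl mutants over wild type (vertical axis) against that of double mutants over Pbrm1 mutants (horizontal axis) for the 851 genes called in the first contrast, coloured where the difference of both effects was called. Egln3 and Tldc2 lie near the line of equal effects, Lcn2 and Fgg to its right, and Hspa1a, Cyp4a12a and Ces1g far below it.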

How the data were processed

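Kidney cortex RNA of 16 samples in 4 groups of 4 was measured on Affymetrix mouse gene arrays. The deposited values are log2 expression per probe set. The submitters' processing notes name Affymetrix Expression Console, version 1.4, and robust multi-array averaging as what the authors used. Background correction and quantile scaling inside that method compress differences of dim probe sets. Array medians lay between 5.18 and 5.27, and precision is limited by how many arrays there are.

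Of 41345 probe sets, 23521 had 1 gene symbol in the platform annotation, 1814 had several and 16010 were not listed. The Entrez number of 23328 was found in the RefSeq gene table and gave current symbols. For the 1082 genes with several probe sets the probe set with the highest mean stood for the gene. This gave 22180 genes, all tested. The background level, 3.72, is the highest lower quartile of an array, and a gene under it in a group is given by levels only.

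A limma model (version 3.58.1, R 4.3.3) over all 16 arrays had 4 group means, eBayes with a trend and the description number as a random block (correlation 0.0838). P-values were adjusted over all genes by the method of Benjamini and Hochberg and called under 0.05. In data simulated for the Vhl contrast over 22180 genes, 82.1% of planted 1.5-fold, 97.0% of 2-fold and 100% of 4-fold changes were recovered, and 5.58% of calls were not planted. The simulated noise was independent between arrays, also between arrays that share a description number. These shares therefore do not cover genes whose levels follow the number, as those of the clock genes do in Vhl mutants. Figures and motif counts used Python 3.11.15 with pandas 2.3.3, numpy 2.4.6 and matplotlib 3.10.9.

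The 71 gene lists, and the genes examined, were chosen with earlier results of these data known. Genes named are the 12 largest called rises and 12 largest called falls without overlap, up to 4 called members and the first 2 genes of each list, all members of the oxygen-sensing, HIF target, dioxygenase and glycolysis lists, the deleted and driver genes, and called neighbours of Vhl. Replicate numbers did not pair samples: the correlations of deviations of same-numbered Vhl mutant and wild-type arrays were -0.0603, 0.0408, 0.00801 and -0.0519. Alternatives were the arrays compared alone, no block, arrays averaged per number, a replicate block, averaging probe sets, dropping dim genes, median centring, quantile scaling, array weights, no trend, a minimum of 1.5-fold, and omitting each array or number in turn.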

Additional observations from a re-analysis of the deposited data

Results flagged for a closer look

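In groups of 4 arrays, a single array stood far from the other 3 for a few genes. Chance gives this in about 1 in 20 groups. The low arrays were wild-type replicate 1 at 4.50 for Slc16a3, a wild-type array at 11.91 for Umod and one at 5.96 for Cx3cr1. The high arrays were wild-type replicate 1 at 6.11 for Stc1, Vhl mutant arrays at 6.46 for Kcne1, 6.25 for Adgre1 and 6.65 for Mki67, and a wild-type array at 7.09 for Slitrk6. For Emcn, arrays stood apart in Vhl mutants at 9.58 and in wild type at 9.06.

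The effect of Vhl loss differed between the contrasts, by the test of the difference itself, for 39 of the genes named. Differences are given on the log2 scale as Vhl mutants over wild type minus double mutants over Pbrm1 mutants. Injury and acute phase genes had lower effects in the first contrast: Lcn2 at -1.78, Fgg at -1.96, Fga at -1.32, Osmr at -0.88, Cp at -0.82, Cdkn1a at -0.82 and Krt19 at -0.78. So had the matrix and complement genes C7 at -1.21, Fn1 at -1.0, Col12a1 at -0.95, Plod2 at -0.63, Serping1 at -0.58 and Cfb at -0.42, and Stc1 at -0.98, Pfkp at -0.77, Pfkl at -0.56, Calcrl at -0.48 and Gys1 at -0.38.

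Stress genes and several metabolic genes that fell in the first contrast also had negative differences: Hspa1a at -2.75, Gadd45g at -1.57, Jun at -1.38, Dnajb1 at -0.94, Xbp1 at -0.74 and Hspa5 at -0.69, then Cyp4a12a at -1.71, Ces1g at -1.60, Slitrk6 at -1.41, Osgin1 at -0.80 and Ide at -0.42. Positive differences were those of 9030619P08Rik at 2.49, Plin2 at 0.86, Cox4i2 at 0.71, Uqcrb at 0.68, Cx3cr1 and Rsad2 at 0.63 each, Hsd11b2 at 0.59, Rhcg at 0.50, Klk1 at 0.33 and Slc34a1 at 0.25. Plin2, a lipid droplet coat gene, had an effect of -0.14 in Vhl mutants over wild type and of -1.01 in double mutants over Pbrm1 mutants.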

How the results depend on the processing

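With arrays averaged per description number, 246 genes were called between Vhl mutants and wild type, 1398 between double mutants and Pbrm1 mutants and 99 for the difference of both effects. A 1.5-fold minimum left 262 in the first contrast. Leaving out 1 array gave 545 to 820 calls in it, 1792 to 2057 in the second and 422 to 692 for the difference, and with arrays of a whole number left out the ranges were 369 to 1021, 1011 to 2057 and 236 to 988 over both kinds. The lowest of the first, 369, came without wild-type replicates 1 and 2, which also gave 290 for the difference, against 988 without wild-type replicates 3 and 4. Without double mutant replicates 1 to 3 the second contrast gave 1011 and the difference 236, and without Pbrm1 mutant replicates 3 and 4 they gave 1394 and 300. The difference also gave 884 calls with no block on the number and 337 with no trend. The cause of these shifts was not tested, apart from the fewer samples. With the replicate block, although the numbers do not pair the samples, the counts were 1098, 2552 and 839. Median centring put the median of all genes at -0.05, beside -0.01 as deposited, and called 355 genes higher and 622 lower, a share of 36.3% higher against 53.2%. Under quantile scaling 58.5% were higher. In the second contrast 66.9% of calls were higher, 52.5% after centring and 55.8% after quantile scaling. Averaging the probe sets of Hif1a turned its difference to 0.79. Of 165 named genes, 127 were called, 73 of these under every one of 22 alternatives and 81 with averaged arrays, and 10 of the 38 not called passed in some alternative. Signal near background limits dim genes such as Epo.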

Other observations

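Beyond the groups described, other metabolic lists of the cortex are given by their calls in Vhl mutants against wild type. Lists this short with few calls are not set apart from all genes. Of 29 organic ion and drug transporters 1 rose, of 37 genes of amino acid and creatine metabolism 1 rose, and of 24 genes of lipid droplets and triglyceride 1 rose, with 0 lower in each. Of 18 genes of cholesterol synthesis 0 rose and 2 fell, and of 17 of fatty acid synthesis 0 rose and 1 fell. NRF2 and glutathione genes, which answer oxidative stress, were split, with 3 higher and 3 lower of 28. Over all genes tested, 2.04% were higher and 1.79% lower.

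Of the signalling lists, 5 of 32 growth factor and EGFR genes, 3 of 31 WNT and Notch genes and 3 of 21 prostaglandin and eicosanoid genes rose, with 1, 0 and 0 lower in the same order. Of 31 genes used as markers of human clear cell carcinoma, 6 rose and 0 fell in Vhl mutants over wild type, and 11 rose and 1 fell in double mutants over Pbrm1 mutants. Among 20 genes of the primary cilium and polycystic disease 0 rose and 1 fell, and 3 rose in the second contrast. Over all genes, the second contrast called 6.82% higher and 3.37% lower.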
